A study of Mus musculus with 4 samples.

Results

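The comparison described here asked how Pan02 tumours given both an anti-PD-1 and an anti-LIF antibody (the combo library) differed from tumours given anti-LIF (the anti-LIF library). Its members were the cell barcodes of those 2 libraries with at least 200 detected genes and at most 20% mitochondrial UMIs. They came to 30411 of the 63443 cells kept in all 4 libraries: 14014 from anti-LIF and 16397 from combo. The other libraries, control IgG and anti-PD-1 alone, are used for the joint grouping of cells and for values set beside a result.

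Tumours grew under the skin of the right flank in C57BL/6 females aged 6 to 7 weeks, which entered treatment groups at a tumour size of about 50 mm3, per the labels. Pan02 is a mouse pancreatic cancer cell line. Injections were intraperitoneal, 3 times a week, at 200 µg for the anti-PD-1 antibody (clone RMP1-14) and 25 mg/kg for IgG or anti-LIF. Both libraries compared here had received anti-LIF, and combo alone of the pair had also received anti-PD-1. What the anti-LIF group received in place of anti-PD-1 is not stated in the labels. Each library combined 3 samples whose cells cannot be told apart, so there was 1 library a side and no test was possible. All brackets below are 95% intervals for counting error only, and none of them covers the difference between animals.

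PD-1 is an inhibitory receptor on activated T cells. Its ligands PD-L1 and PD-L2, made by tumour, myeloid and other cells, dampen signalling from the T cell receptor, and blocking antibodies release that brake. LIF is a cytokine of the IL-6 family that signals through LIFR and gp130 to JAK1 and STAT3, and in pancreatic tumours it passes between fibroblasts, macrophages and cancer cells. Antibodies act on the proteins, so RNA of Pdcd1 (PD-1) or Lif does not check either treatment.

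The labels describe the material as Pan02 cancer cells. By marker genes, however, 18.3% of anti-LIF cells and 18.02% of combo cells were cancer cells, and most others fell in host classes. Cells left unnamed made up 2.28% and 4.01%. Combo was sequenced deeper, with 94984486 UMIs against 57720774, and the median cell held 2288 UMIs against 1674.5. The median mitochondrial share was 7.25% in combo and 7.86% in anti-LIF. The pair shared 304 barcodes, of which 266 were kept in both. Cells with the same barcode correlated no better (median r 0.347) than cells with different ones (0.353). The labels name several sequencing instruments and optional debris, dead-cell and DNase steps without saying which library had which, so such differences cannot be told apart from treatment.

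In the main clustering most large classes held similar shares of the cells of both libraries. Macrophages and monocytes were the largest class and made up 32.8% of anti-LIF cells and 28.6% of combo cells, a log2 ratio of -0.19 [-0.25, -0.14]. Fibroblasts held 22.4% and 21.7%. T cells held 8.86% and 9.11%, and the log2 ratio of 0.04 [-0.07, 0.15] did not differ from 0 beyond counting error. Among cells with at least 500 genes it was 0.22, and among those with at least 1000 UMIs 0.37, both outside that interval. Counting error also covered 0 in the ratio of cancer cells, at -0.03 [-0.10, 0.05], and of dendritic cells, at -0.04 [-0.22, 0.14]. All leukocytes together were 49.4% of anti-LIF and 48.1% of combo cells.

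Several smaller classes were more frequent in combo. Neutrophils were 229 cells (1.63%) in anti-LIF and 360 cells (2.196%) in combo, a log2 ratio of 0.43 [0.18, 0.67]. Mast cells or basophils were 72 and 179 cells, 1.09 [0.68, 1.503], but 0.32 with each cell classed by its own marker score. NK cells were 58 and 129 cells, 0.93 [0.47, 1.40], but under that same scoring the value was -0.14, so the direction depended on how NK cells were told from T cells. Pericytes, at 119 and 188 cells, turned in the same way, from 0.43 to -0.16. An unnamed cluster led by Alox15, Ccr3, Prg2 and Siglecf, genes known from eosinophils, held 114 cells in anti-LIF and 313 in combo, 1.23 [0.92, 1.55]. Its best marker score was for neutrophils (2.75), with macrophages or monocytes too close behind (2.28) for the cluster to be named. No eosinophil markers had been listed. With the pair of libraries clustered alone, such cells were named neutrophils.

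Tissue from around the tumour also differed. Skeletal muscle cells numbered 40 in anti-LIF and 186 in combo, a log2 ratio of 1.99 [1.49, 2.52]. A salivary gland cluster (Amy1, Bpifa2, Smr3a) held 178 combo cells and 0 anti-LIF cells, at least 50.7-fold more when 3 cells are taken as the limit for anti-LIF. Gland epithelium outside that cluster was 185 and 213 cells, a log2 ratio of -0.02 [-0.31, 0.27]. With muscle, gland and unnamed cells left out, the large classes stayed within the intervals given above.

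**Figure D1:**
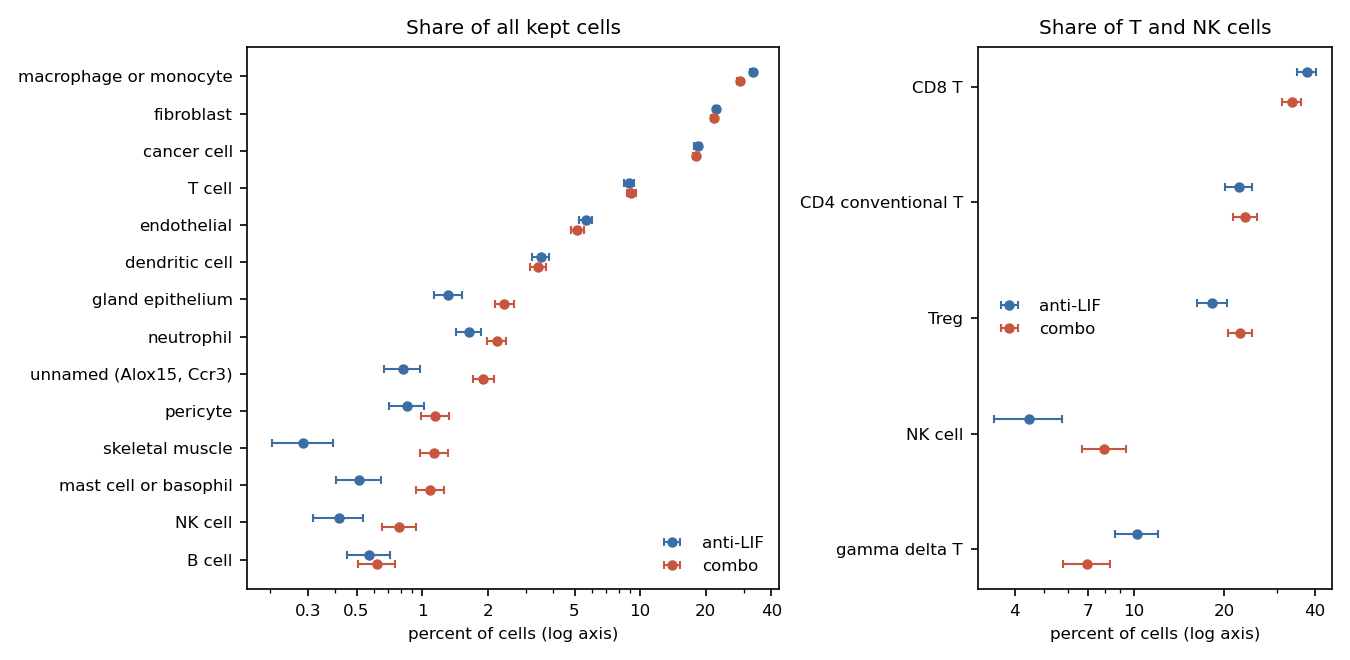
Percent of kept cells in each class (left) and percent of T and NK cells in each subset (right), on log axes, in the anti-LIF library (blue) and the combo library (red); bars are exact 95% intervals for counting error. The large classes lie close together, while skeletal muscle (40 against 186 cells) and the unnamed cluster (114 against 313) lie apart.

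Among T and NK cells, regulatory T cells (Treg, Foxp3-positive suppressors) took a larger share in combo. They were 18.2% of T and NK cells in anti-LIF and 22.6% in combo, a log2 ratio of 0.31 [0.07, 0.55]. CD8 T cells, the killer lineage, were 37.7% and 33.5%, at -0.17 [-0.35, 0.01]. The number of CD8 T cells per Treg was therefore 2.07 [1.77, 2.42] in anti-LIF and 1.48 [1.30, 1.70] in combo. Conventional CD4 T cells were 22.3% and 23.5%, 0.07 [-0.15, 0.30]. Gamma delta T cells were 10.2% and 6.97%, -0.55 [-0.93, -0.18], whereas anti-PD-1 against control gave 0.58. As shares of all kept cells they went the same way in both contrasts, at -0.46 and -0.92. With cells classed by marker score the Treg value was 0.66 and the CD8 value 0.01.

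Before single genes are described, one feature of the whole library needs stating. Gene levels below are UMIs summed over a class and given as CPM, scaled to 1000000 UMIs of that class, and differences are log2 ratios of combo over anti-LIF. A gene counts as measured with at least 100 UMIs over both libraries, and "at least 2-fold" means a log2 ratio of 1 or more, or of -1 or less. Of 3461 genes measured in each of 6 classes (cancer cells, macrophages, T cells, fibroblasts, endothelial cells and dendritic cells), 4 were at least 2-fold lower in combo in all 6: Cct7, Ppp1ca, Rpl28 and Gm8797. The 2 that were at least 2-fold higher in all 6 were the salivary genes Bpifa2 and Smr3a. Cct7, a chaperonin subunit, ran from -1.97 to -1.55 over the classes, and in the same classes anti-PD-1 against control gave 1.45 to 2.17. Ppp1ca, a catalytic subunit of protein phosphatase 1, ran from -1.78 to -1.41, against 1.76 to 2.08. Across 3459 genes the log2 ratios of pairs of classes correlated with Spearman's rho of 0.31 to 0.65. Genes are not replicates and all classes come from the same pair of libraries, so this is a description of how much of a difference was common to unrelated cells.

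The genes at least 2-fold lower in combo were mostly lower in other classes too, though the same share over all measured genes was not computed. In cancer cells 133 of 10452 measured genes (1.27%) were at least 2-fold lower. Of the 92 of them measured in at least 2 other main classes, 73 had a median log2 ratio of -0.5 or less there. In macrophages the count was 87 of 10326 (0.843%), with 60 of 69 lower elsewhere, and in fibroblasts 103 of 10997 (0.937%), with 64 of 71. In all T cells 30 of 5507 genes (0.545%) were at least 2-fold lower, 19 of 24 also elsewhere, and 11 (0.200%) higher. Genes at least 2-fold higher numbered 50 in cancer cells (0.478%), with 13 of 27 also higher elsewhere, 37 in macrophages (0.358%), with 11 of 17, and 87 in fibroblasts (0.791%), with 17 of 37. These counts moved with the gene minimum: with at least 20 UMIs fibroblasts had 274 genes higher and 254 lower, and T cells 164 and 140. With other classes subtracted fibroblasts had 24 and 13. Only genes measured in at least 2 other main classes entered that count, among them 37 of the 87 higher and 71 of the 103 lower. The median over other main classes is therefore given beside many of the named genes. Salivary RNA spread in the same manner. Bpifa2, a salivary secretory protein, was at 1.68 CPM in anti-LIF macrophages and 193 in combo macrophages, at 0.776 and 141 in fibroblasts and at 0.115 and 104 in cancer cells, beside 177400 CPM in combo gland epithelium. Apart from the salivary genes and the gene lists, no gene is described whose CPM was under 10% of that in another class of the same library.

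Of the PD-1 axis, the receptor gene Pdcd1 was higher in combo in Treg cells and within counting error in CD8 T cells. In Treg cells it was at 103 CPM in anti-LIF and 201 in combo, a log2 ratio of 0.96 [0.42, 1.57]. The ratio was 0.82 to 0.99 over the alternatives that gave a value for it. The 237 and 367 Treg cells held a median of 986 and 1561 UMIs. In CD8 T cells it was at 290 and 316 CPM, 0.12 [-0.16, 0.41], and in conventional CD4 T cells at 110 and 138 CPM, 0.32 [-0.27, 0.94]. Over all T cells the levels were 196 and 239 CPM, 0.28 [0.09, 0.48]. Without anti-LIF, adding anti-PD-1 went with a log2 ratio of 1.18 over all T cells, of 1.29 in CD8 T cells and of 0.86 in Treg cells. Those libraries shared no sample with the pair described here.

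The ligand genes were lower or level in combo. Cd274 (PD-L1) in macrophages was at 61.4 and 53.9 CPM, a log2 ratio of -0.19 [-0.32, -0.06], and its median over 6 other classes was -0.15. In dendritic cells it was at 150 and 132 CPM, -0.18 [-0.43, 0.07], in neutrophils at 173 and 122 CPM, -0.51 [-1.03, 0.03], and in cancer cells at 11.1 and 10.2 CPM, -0.12 [-0.39, 0.15]. CD8 T cells were the exception, at 62.0 and 105 CPM, 0.74 [0.18, 1.35], with 38.6% of the combo UMIs in 10 cells. Pdcd1lg2 (PD-L2) in macrophages was at 22.9 and 16.7 CPM, -0.46 [-0.68, -0.24], and in dendritic cells at 99.2 and 82.0 CPM, -0.27 [-0.58, 0.04]. Cd80, which binds CD28, CTLA-4 and PD-L1, was at 54.5 and 44.4 CPM in macrophages, -0.30 [-0.44, -0.16], and at 154 and 145 CPM in dendritic cells, -0.10 [-0.33, 0.15]. Cd86 was at 154 and 132 CPM in macrophages, -0.22 [-0.30, -0.14], and at 235 and 241 CPM in dendritic cells, 0.04 [-0.15, 0.23]. Ptpn6, the phosphatase SHP-1, was at 214 and 211 CPM in macrophages, and Cd28 in CD8 T cells at 655 and 590 CPM, -0.15 [-0.35, 0.05]. Rgmb, a PD-L2 partner, was at 103 and 100 CPM in cancer cells. None of the 8 measured axis genes in macrophages, and none of the 5 in cancer cells or CD8 T cells, was at least 2-fold apart.

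**Figure D2:**
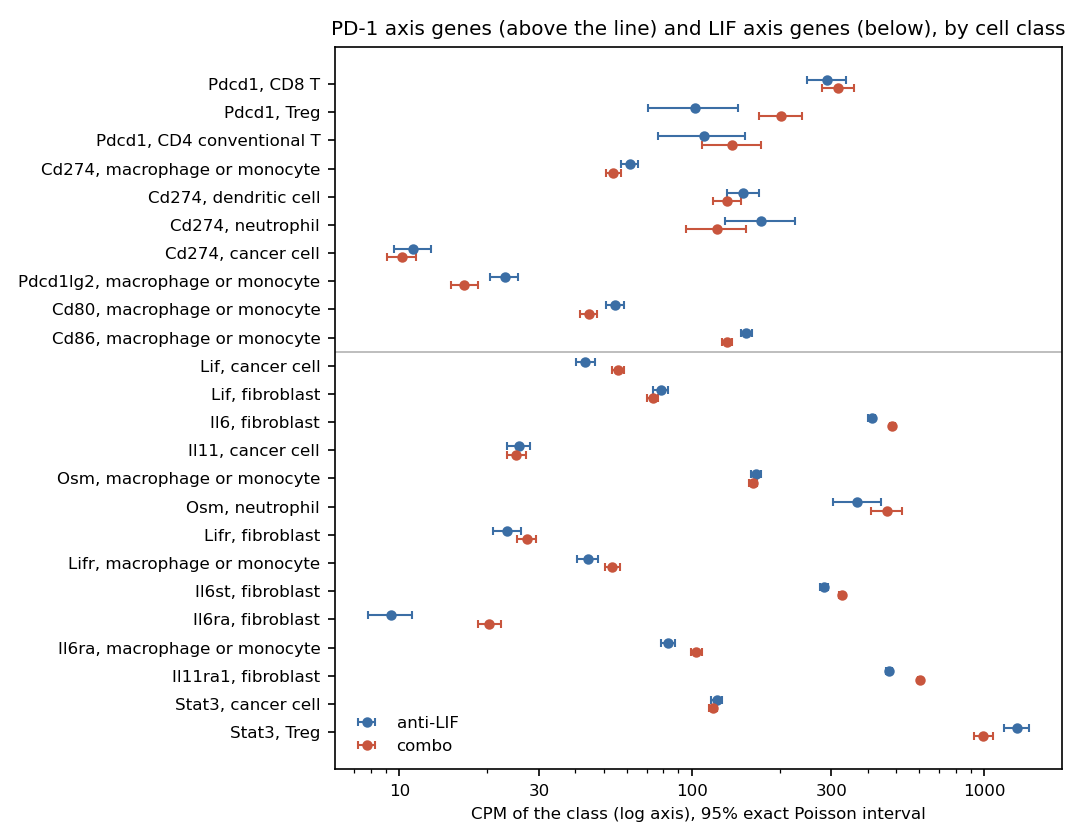
CPM of PD-1 axis genes (above the line) and LIF axis genes (below) in the class named, on a log axis, for anti-LIF (blue) and combo (red), with exact 95% Poisson intervals. Pdcd1 in Treg cells (103 against 201) and Il6ra in fibroblasts (9.32 against 20.3) show the largest gaps drawn, and most other pairs lie close together.

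Of the LIF axis, 8 of 12 measured genes were above 0 in fibroblasts, 6 of 11 in macrophages and 3 of 10 in cancer cells, with medians of 0.13, 0.04 and -0.05. Lif in cancer cells was at 43.3 and 56.0 CPM, a log2 ratio of 0.37 [0.25, 0.50], but it was -0.57 among the 967 and 1157 cancer cells with at most 10% mitochondrial UMIs. By cluster it was 0.63 [0.40, 0.88] in cluster 3 and -0.55 [-0.95, -0.14] in cluster 6. In fibroblasts Lif was at 78.3 and 73.4 CPM, -0.09 [-0.20, 0.01], but the fibroblast clusters went opposite ways. It was 0.19 [0.06, 0.31] in cluster 0, led by Lrrc15, and -0.63 [-0.86, -0.41] in cluster 8, led by Ptx3. Il6 in fibroblasts, a relative of LIF that uses the same gp130 subunit, was at 412 and 485 CPM, 0.23 [0.19, 0.28]. Inside clusters 0 and 8 Il6 was level, at 0.10 [-0.02, 0.21] and 0.02 [-0.03, 0.07]. Cluster 8, with more Il6 (887 and 898 CPM against 122 and 130), held 956 anti-LIF and 1552 combo cells. Il11 in cancer cells was at 25.6 and 25.1 CPM, but its log2 ratio ran from -0.76 at the 10% mitochondrial limit to 0.78 as a mean over cells. Clcf1 was at 52.9 and 51.1 CPM, and its ratio ran from -0.15 at that limit to 0.59 with cells thinned to 1000 UMIs. Osm (oncostatin M) was at 166 and 162 CPM in macrophages, -0.04 [-0.11, 0.04], and at 369 and 465 CPM in neutrophils, 0.33 [0.02, 0.66].

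Among the receptor subunits, Il6ra in fibroblasts was the one at least 2-fold apart, at 9.32 and 20.3 CPM, 1.12 [0.84, 1.41], with a median of 0.33 over 3 other classes. In macrophages Il6ra was at 82.8 and 104 CPM, 0.32 [0.22, 0.43], which is below its median over other classes of 0.44. Lifr, the LIF receptor, was at 44.0 and 53.5 CPM in macrophages, 0.28 [0.14, 0.42], at 23.4 and 27.2 CPM in fibroblasts, 0.22 [0.03, 0.41], and at 63.7 and 65.0 CPM in endothelial cells, 0.03 [-0.34, 0.40]. Il6st (gp130) was at 42.3 and 52.0 CPM in macrophages, 0.30 [0.15, 0.44], and at 284 and 325 CPM in fibroblasts, 0.20 [0.14, 0.25]. In cancer cells it was at 112 and 104 CPM, -0.11 [-0.19, -0.02], but 0.063 at the 10% mitochondrial limit and 0.15 as a mean over cells. In endothelial cells it was at 559 and 565 CPM. Il11ra1 in fibroblasts was at 474 and 601 CPM, 0.34 [0.30, 0.39]. Osmr was at 14.4 and 11.1 CPM in cancer cells, -0.38 [-0.62, -0.13] but 0.027 as a mean over cells, at 122 and 129 CPM in fibroblasts and at 169 and 167 CPM in endothelial cells. Downstream, Jak1 in cancer cells was at 163 and 158 CPM and Stat3 at 122 and 118 CPM, -0.05 [-0.12, 0.03]. Stat3 was lower in combo Treg cells, at 1293 and 994 CPM, -0.38 [-0.56, -0.20], and in macrophages, at 291 and 253 CPM, -0.20 [-0.26, -0.14], with -0.09 and -0.07 elsewhere, and level in fibroblasts, 0.02 [-0.04, 0.08].

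In CD8 T cells perforin RNA was higher in combo and interferon gamma RNA lower. Of 14 measured cytotoxic effector genes 10 were above 0 and 4 below, with a median log2 ratio of 0.12, beside 0.03 over all 2273 genes measured. The median ran from -0.0026 with the pair clustered alone to 0.35 with other classes subtracted. Prf1, which encodes the pore-forming perforin, was at 129 and 209 CPM, 0.69 [0.30, 1.11]. Gzmb and Gzmk, granule proteases, were within counting error, at 0.15 [-0.14, 0.45] and 0.20 [-0.31, 0.72]. Ifng, the gene of interferon gamma, was lower in combo, at 303 and 191 CPM, -0.66 [-0.98, -0.34], and -0.82 to -0.61 over the alternatives. Xcl1, a chemokine for cross-presenting dendritic cells, was at 134 and 66.8 CPM, -1.0005 [-1.53, -0.49], the 1 list member at least 2-fold apart, with 65.0% of its anti-LIF UMIs in 10 cells. Nkg7, a granule protein, was at 704 and 624 CPM. Ccl5 was at 3246 and 4451 CPM, 0.46 [0.37, 0.54], below its median of 0.58 over 5 other classes. Ccl4 was 0.57 [0.15, 1.02] but -0.92 when the pair of libraries was clustered alone.

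Genes of T cell receptor activation lay below 0 in CD8 T cells. All 7 measured members were below 0, with a median of -0.18, and none was at least 2-fold apart. Nr4a3, Nr4a1 and Nr4a2, nuclear receptors induced by receptor signalling, were at -0.37 [-0.54, -0.21], -0.31 [-0.56, -0.06] and -0.27 [-0.43, -0.10], and their medians over other classes were -0.36, -0.29 and -0.08. Of exhaustion genes 3 were measured: Pdcd1 as above, Tox, a regulator of exhausted cells, at 73.7 and 107 CPM, 0.53 [0.00, 1.10], and Ctla4 at 836 and 739 CPM, -0.18 [-0.35, 0.00]. At least 2-fold higher in CD8 T cells were 8 genes (0.352%) and at least 2-fold lower 19 (0.836%). All 16 of the lower ones measured elsewhere were also lower in other classes. Nfkbie, an inhibitor of NF-kappa-B, was at 58.6 and 130 CPM, 1.13 [0.58, 1.74], against a median of -0.20 elsewhere. Rnf125, a ubiquitin ligase, was at 144 and 285 CPM, 0.98 [0.62, 1.36], and Vps37b, an endosomal sorting subunit, at 189 and 338 CPM, 0.83 [0.51, 1.17], with 0.67 and 0.42 elsewhere.

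In Treg cells the identity genes Foxp3, Il2ra and Ctla4 were within counting error, and the surface genes Tnfrsf18, Lrrc32 and Cd2 were at least 2-fold lower. Foxp3, the transcription factor whose RNA defined these cells here, was at 1032 and 970 CPM, -0.09 [-0.28, 0.10], Il2ra at 1200 and 1217 CPM, and Ctla4 at 2707 and 2880 CPM, 0.09 [-0.03, 0.21]. Of 12 measured Treg programme genes 5 were above 0 and 7 below, median -0.06, beside 0.02 over all 1746 genes. Tnfrsf18 (GITR, a costimulatory receptor) was at 578 and 233 CPM, -1.31 [-1.62, -1.0004], and Lrrc32 (GARP, which holds latent TGF-beta) at 246 and 113 CPM, -1.12 [-1.59, -0.65]. Lrrc32 had a median of -1.07 over 3 other classes, and both genes went the other way without anti-LIF, at 1.33 and 2.35. Il10 was at 121 and 191 CPM, 0.65 [0.14, 1.21], with 50.0% of combo UMIs in 10 cells. Notch1 was at 52.8 and 127 CPM, 1.23 [0.51, 2.11], against -0.01 elsewhere, and Cd2 at 1865 and 812 CPM, -1.20 [-1.37, -1.03], against -0.75. At least 2-fold higher were 5 of 1746 genes (0.286%) and lower 10 (0.573%). In conventional CD4 T cells 6 of 1379 genes (0.435%) were at least 2-fold higher and 13 (0.943%) lower. Among the latter was Fosb, an immediate early gene, at 1911 and 831 CPM, -1.20 [-1.38, -1.02], and Nr4a1 stood at 1685 and 896 CPM, -0.91 [-1.09, -0.73].

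Macrophages of combo had more RNA of alternative-activation genes and less of monocyte genes. Of 17 alternative macrophage genes 16 were above 0, with a median log2 ratio of 0.42, beside 0.01 over all 10326 genes measured. Cd163, the haemoglobin scavenger receptor, was at 55.3 and 112 CPM, 1.02 [0.90, 1.14]. Cd209f, a lectin, was at 78.5 and 156 CPM, 0.99 [0.89, 1.09], and Ccl24, a chemokine for eosinophils, at 91.5 and 160 CPM, 0.81 [0.72, 0.90]. Clec10a and Lyve1 were at 0.80 [0.73, 0.86] and 0.78 [0.71, 0.85], while Mrc1 and Retnla were higher by less, at 0.15 and 0.32. Chil3 was below 0, at -0.48, with 73.5% of its anti-LIF UMIs in 10 cells, and 0.72 as a mean over cells. All 10 monocyte genes were below 0, with a median of -0.47. Ly6c2, a surface marker of inflammatory monocytes, was at 239 and 137 CPM, -0.80 [-0.87, -0.73], Ly6i at 17.4 and 9.12 CPM, -0.93 [-1.21, -0.66], F10 (coagulation factor X) at 102 and 73.0 CPM, -0.48 [-0.58, -0.37], and Ccr2, the receptor that brings monocytes into tissue, at 475 and 436 CPM, -0.12 [-0.17, -0.08]. Hp, the 1 monocyte gene at least 2-fold lower, was at 16.6 and 5.18 CPM, -1.67 [-2.02, -1.34], close to its median of -1.38 elsewhere.

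The mix of macrophage clusters moved with these lists. The cluster led by Lyve1, Cd163, Cd209f, Fcna and C6 held 575 of 4590 anti-LIF macrophages and 831 of 4694 combo macrophages, and the cluster led by Ccl24, Arg1, F10 and Ccr2 held 1073 and 802. Those sizes are not a separate result, since the same genes formed the clusters. With all clusters weighted alike in both libraries the alternative list had a median of 0.15, and with each gene's median over other classes subtracted 0.08. The latter took in only members measured in at least 2 other main classes. Ccl24 was higher in all 5 macrophage clusters, from 0.43 [0.11, 0.76] to 3.07 [2.21, 4.23], and Cd163 was 0.54 [0.42, 0.67] inside the Lyve1 cluster. Cd209f was 0.48 [0.38, 0.58] inside the Lyve1 cluster and -1.36 [-2.76, -0.10] in cluster 4, from 15 and 9 UMIs. Its intervals in clusters 7, 10 and 12 held 0. Clec10a ran from 0.08 [-0.16, 0.33] in cluster 10 to 1.04 [0.53, 1.60] in cluster 7. Prl2c2, which leads a cancer cell cluster, was among the top 10 genes of macrophage cluster 7, and the part of cancer cell RNA there was not tested.

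Cxcl10 and Irf1, targets of interferon gamma, were lower in combo macrophages. Of 27 measured genes of interferon gamma response and MHC class I, 20 were below 0 and 7 above, with a median of -0.16, or -0.038 with each gene's median over other classes subtracted. Cxcl10, a chemokine that draws CXCR3-bearing T cells, was at 350 and 221 CPM, -0.67 [-0.73, -0.61], against a median of 0.10 over 6 other classes. Irf1, an interferon-induced transcription factor, was at 317 and 204 CPM, -0.63 [-0.69, -0.57], against -0.15. Both were lower in all 5 macrophage clusters, Cxcl10 by -1.20 to -0.52 and Irf1 by -0.81 to -0.34, and both were also lower in anti-PD-1 than in control, at -0.98 and -0.75. Psmb8, an immunoproteasome subunit, and B2m were at -0.42 and -0.29, but at -0.33 and -0.28 over other classes as well. Cxcl9 was at 274 and 240 CPM, -0.19 [-0.25, -0.13], and Gbp7, a guanylate-binding protein, at 93.8 and 114 CPM, 0.28 [0.18, 0.37].

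Inflammatory macrophage genes pointed the same way, with 12 of 14 below 0 and a median of -0.21. Il1b was at 1001 and 774 CPM, -0.37 [-0.40, -0.34], with -0.18 elsewhere, Cxcl3 at 164 and 104 CPM, -0.65 [-0.74, -0.57], and Ccl5 at 143 and 100 CPM, -0.52 [-0.60, -0.43]. Nos2, inducible nitric oxide synthase, was at 10.2 and 2.47 CPM, -2.03 [-2.53, -1.58], but 10 cells held 77.2% of its anti-LIF UMIs. The 2 members above 0 were Tnf, at 202 and 238 CPM, 0.23 [0.17, 0.30], and Ccl4, at 218 and 252 CPM, 0.21 [0.14, 0.27]. Of lipid-associated macrophage genes, Gpnmb was at 125 and 202 CPM, 0.69 [0.61, 0.77], Apoe at 4770 and 6611 CPM, 0.47 [0.46, 0.48], and Lpl at 349 and 483 CPM, 0.47 [0.42, 0.52], with medians elsewhere of 0.29, 0.31 and 0.36. Ctsd, a lysosomal protease, was at 738 and 372 CPM, -0.99, and at -1.03 over 6 other classes. Largest in size was Cubn, an endocytic receptor, at 0.491 and 6.46 CPM, 3.62 [2.63, 5.06]. Fcna (ficolin A) was at 42.5 and 109 CPM, 1.36 [1.23, 1.49], C6 at 20.1 and 42.4 CPM, 1.08 [0.89, 1.28], and Slc15a2, a peptide transporter, at 2.32 and 7.03 CPM, 1.58 [1.05, 2.19]. Ly9, a SLAM family receptor, was lower, at 31.3 and 9.40 CPM, -1.73 [-1.98, -1.49].

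**Figure D3:**
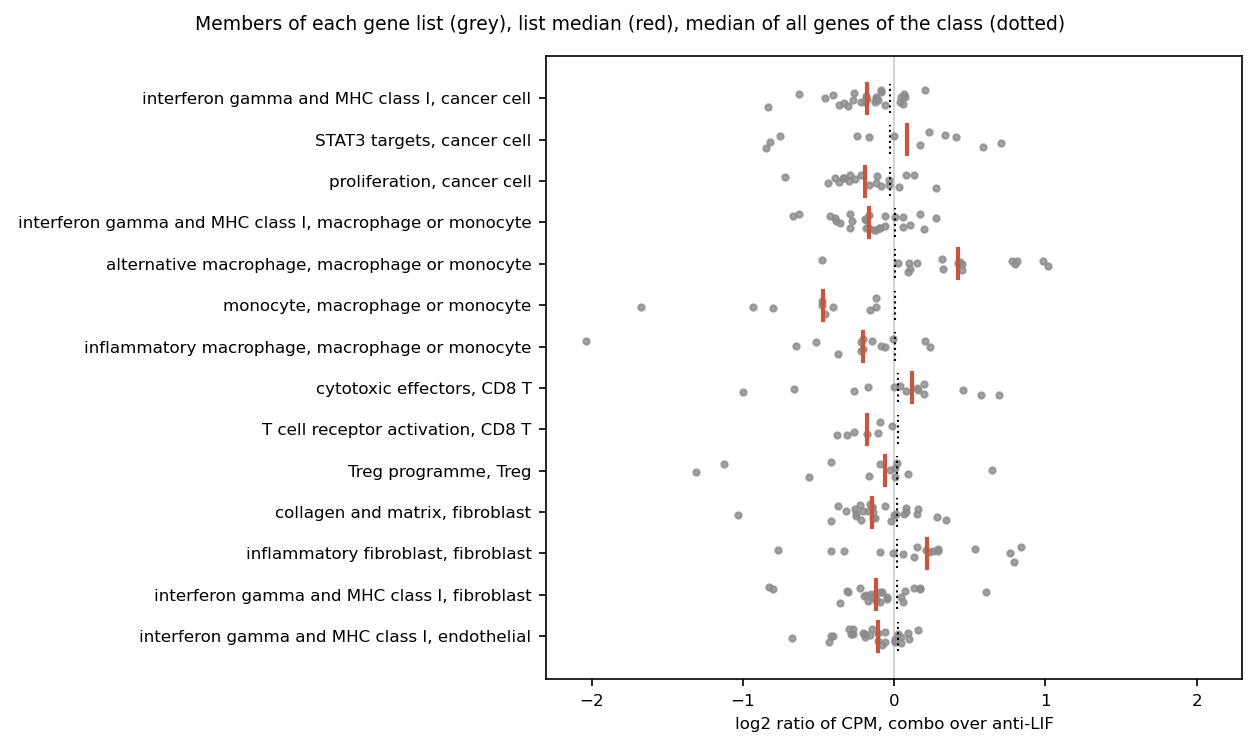
Log2 ratio of CPM, combo over anti-LIF, for each measured member (grey points) of 14 pairs of gene list and class, with the list median (red) and the median of all genes of the class (dotted); the vertical spread is only for display and 1 member beyond the axis is not drawn. The alternative macrophage list (median 0.42) and the monocyte list (-0.47) lie farthest from the dotted lines.

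Cancer cells showed 1 gene far from the rest. Rhox5, an X-linked homeobox gene, was at 2.53 and 57.5 CPM, a log2 ratio of 4.49 [4.08, 4.97]. It was higher in combo in all 4 cancer cell clusters, from 1.81 [1.15, 2.64] to 5.33 [4.73, 6.08]. Control and anti-PD-1 cancer cells were at 25.6 and 20.4 CPM, so the anti-LIF library was the low one of the 4. Hapln1, which links hyaluronan to proteoglycans, was at 2.70 and 13.3 CPM, 2.29 [1.86, 2.77], Ecrg4, a secreted peptide precursor, at 6.32 and 25.8 CPM, 2.02 [1.74, 2.33], and Cdhr1, a cadherin family member, at 1.43 [1.20, 1.66]. Nrcam, an adhesion molecule, was at 25.0 and 64.1 CPM, 1.36 [1.21, 1.51], with 0.80 elsewhere, and Ehf, an epithelial ETS factor, at 12.3 and 30.4 CPM, 1.31 [1.09, 1.53].

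Lower in combo cancer cells was Tnnt2, cardiac troponin T, at 36.9 and 4.77 CPM, -2.95 [-3.23, -2.68]. It was lower in 3 of the 4 clusters and at 0.17 [-1.58, 2.17] in cluster 6, and anti-PD-1 against control gave 1.64. Dpysl3, a cytoskeletal regulator, was at 67.6 and 16.1 CPM, -2.07 [-2.22, -1.91], Apcdd1, a Wnt inhibitor, at 75.0 and 19.2 CPM, -1.97 [-2.11, -1.82], and Macc1, a regulator of MET, at 21.5 and 5.74 CPM, -1.90 [-2.18, -1.64]. Dpysl3 and Apcdd1 were also lower elsewhere, with medians of -0.50 and -0.89.

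Antigen presentation genes were slightly lower in combo cancer cells. Of 27 measured genes of interferon gamma response and MHC class I, 21 were below 0 and 6 above, none was at least 2-fold apart, and the median was -0.18, beside -0.03 over all genes. Psmb8 was at 113 and 63.2 CPM, -0.83 [-0.93, -0.74], with -0.33 elsewhere, and was lower in all 4 clusters. Irgm2, Irgm1 and Psmb9, interferon-induced GTPases and an immunoproteasome subunit, were at -0.63 [-0.91, -0.34], -0.46 [-0.58, -0.33] and -0.40 [-0.64, -0.16]. B2m, the light chain of MHC class I, was at 2494 and 1984 CPM, -0.33 [-0.35, -0.31], and from -0.62 to -0.06 over the alternatives. The heavy chains H2-K1 and H2-D1 were at -0.18 and -0.19, with -0.16 and -0.10 elsewhere. Socs1, a feedback inhibitor, was at 46.1 and 53.3 CPM, 0.21 [0.08, 0.33], but -0.13 as a mean over cells. Over the alternatives the list median ran from -0.62, among cells with at most 10% mitochondrial UMIs, to -0.08.

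STAT3 targets, which LIF induces, had no common direction: 6 of 12 were above 0 and 6 below, median 0.09, and -0.16 at the 10% mitochondrial limit. Pim1, a kinase, was at 123 and 201 CPM, 0.71 [0.64, 0.78], Junb at 367 and 550 CPM, 0.59 [0.54, 0.63], Cish at 8.73 and 11.6 CPM, 0.41 [0.13, 0.70], and Socs3, the feedback inhibitor of gp130, at 195 and 229 CPM, 0.23 [0.17, 0.29]. Junb had 0.56 elsewhere, Pim1 0.19 and Socs3 -0.15. Il4ra was at 24.7 and 14.0 CPM, -0.82 [-1.02, -0.62], and Fosl1 at 269 and 159 CPM, -0.75 [-0.81, -0.69], with -0.53 and -0.71 elsewhere. Proliferation genes had 16 of 20 members below 0 and a median of -0.19, or 0.08 with other classes subtracted. Aurka and Plk1, mitotic kinases, were at -0.72 [-0.89, -0.55] and -0.44 [-0.57, -0.31], Mki67 at -0.30 [-0.38, -0.21], with -0.12 elsewhere, Top2a at -0.03 [-0.08, 0.01] and Tyms at 0.28 [0.18, 0.38].

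Neutrophil-attracting chemokines were higher in combo cancer cells, named here after their values were seen. Cxcl1 was at 23.9 and 90.4 CPM, 1.92 [1.77, 2.07], against -0.17 over 5 other classes, and higher in all 4 clusters. Cxcl2 was at 135 and 248 CPM, 0.87 [0.81, 0.94], but -0.02 at the 10% mitochondrial limit. Cxcl3 was at 39.9 and 72.7 CPM, 0.86 [0.74, 0.99], and Cxcl5 at 38.5 and 69.6 CPM, 0.85 [0.73, 0.98], with -0.40 and -0.02 elsewhere. Fibroblasts reached 2167 CPM of Cxcl1 and neutrophils 11589 CPM of Cxcl2, and the part of their RNA in cancer cells was not tested. All 4 chemokines went the other way without anti-LIF, at -1.29, -2.75, -1.27 and -1.04. Ccl2, which attracts monocytes, was at 36.8 and 17.1 CPM, -1.11 [-1.28, -0.94], with -0.22 elsewhere.

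**Figure D4:**
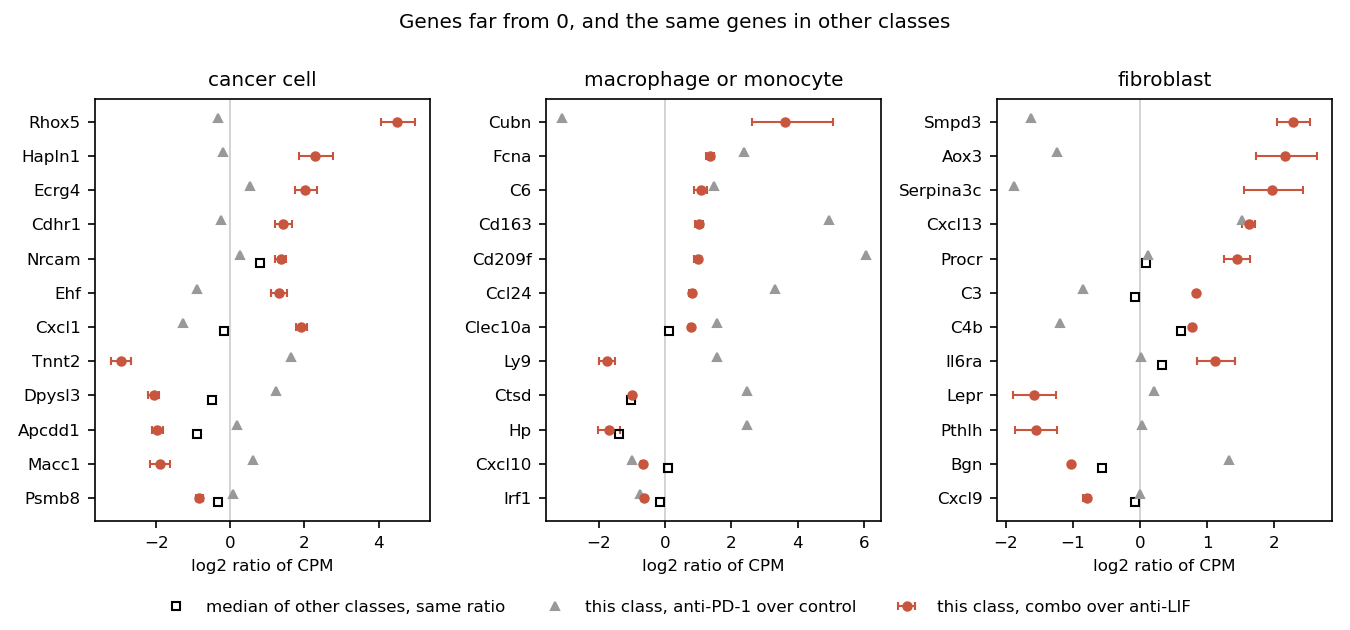
Log2 ratio of CPM for 12 named genes in each of 3 classes: combo over anti-LIF with its 95% counting interval (red), the median of the same ratio over other main classes where at least 2 measured the gene (open squares), and anti-PD-1 over control in the same class (grey triangles). Ctsd and Hp lie close to their squares, whereas Cxcl1, Cxcl10, Procr and C3 lie away from theirs.

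In fibroblasts the gene Smpd3, a neutral sphingomyelinase, was at 10.7 and 52.1 CPM, 2.28 [2.04, 2.53], Aox3, an aldehyde oxidase, at 3.39 and 15.2 CPM, 2.15 [1.73, 2.63], and Zbtb16, a transcription factor, at 2.47 and 10.2 CPM, 2.03 [1.54, 2.60]. Serpina3c was at 3.67 and 14.4 CPM, 1.97 [1.55, 2.43]. Cxcl13, the chemokine for B cells, was at 82.4 and 253 CPM, 1.62 [1.53, 1.71], and anti-PD-1 against control gave 1.52. Procr, the protein C receptor, was at 19.1 and 52.0 CPM, 1.45 [1.26, 1.64], against 0.08 over 4 other classes. Lower were Lepr, the leptin receptor, at 15.9 and 5.32 CPM, -1.58 [-1.90, -1.26], and Pthlh at 16.8 and 5.73 CPM, -1.55 [-1.86, -1.24].

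Among inflammatory fibroblast genes, those of complement were higher in combo. The list had 13 of 18 members above 0 and a median of 0.22, beside 0.02 over all genes. C3, the central complement component, was at 3262 and 5836 CPM, 0.84 [0.82, 0.85], C4b at 1045 and 1781 CPM, 0.77 [0.74, 0.80], with 0.61 elsewhere, Pi16 at 35.9 and 62.2 CPM, 0.79 [0.65, 0.94], and Dpt at 1853 and 2270 CPM, 0.29 [0.27, 0.31]. Saa3, Cxcl14 and Ccl2 were lower, at -0.77, -0.42 and -0.33. The list's 1 gene at least 2-fold higher was Cfd, a complement protease, at 0.494 and 7.16 CPM. Fibroblast cluster 8, led by Ptx3, Sfrp4, Serpina3n and Cxcl13, held 956 of 3136 anti-LIF fibroblasts and 1552 of 3559 combo fibroblasts, which is again no separate result because those genes formed it. Inside cluster 8 C3 was at 0.82 [0.81, 0.84], and in cluster 0, led by Lrrc15, at -0.41 [-0.45, -0.38]. In the same order C4b was at 0.69 [0.66, 0.72] and 0.04 [-0.03, 0.10], and Pi16 at 0.83 [0.67, 1.00] and -0.56 [-0.91, -0.21].

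Of 28 measured collagen and matrix genes 20 were below 0 and 8 above, median -0.14, or -0.078 with both clusters weighted alike. Col1a1 and Col3a1, the main fibrillar collagens, were at -0.14 [-0.15, -0.14] and -0.22 [-0.22, -0.21], Postn (periostin) at 4610 and 3451 CPM, -0.42 [-0.43, -0.40], with -0.32 elsewhere, Lrrc15, a marker of tumour fibroblasts, at 506 and 391 CPM, -0.37 [-0.41, -0.33] (-0.11 in cluster 0 and -1.81 in cluster 8), and Col8a1 at -0.32 [-0.35, -0.29]. Col11a1 and Col4a1 were above 0, at 0.34 [0.24, 0.45] and 0.28 [0.24, 0.32]. Bgn (biglycan) was the 1 member at least 2-fold lower, at 6955 and 3400 CPM, -1.03 [-1.05, -1.02], with -0.57 elsewhere. Contractile genes had 7 of 8 above 0, median 0.25, with Actg2 at 0.55 [0.33, 0.77] and Cnn1 at 0.49 [0.14, 0.85]. Of 27 interferon gamma and MHC class I genes 20 were below 0, median -0.12. Cxcl9 was at 492 and 283 CPM, -0.80 [-0.85, -0.75], against -0.07 elsewhere, and Gbp4 at -0.83 [-1.18, -0.48]. Socs1 was at 132 and 201 CPM, 0.61 [0.53, 0.69], and Cxcl10 at 652 and 735 CPM, 0.17 [0.14, 0.21], the direction opposite to macrophages. Whether the Cxcl10 ratio differed between the classes was not tested.

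**Figure D5:**
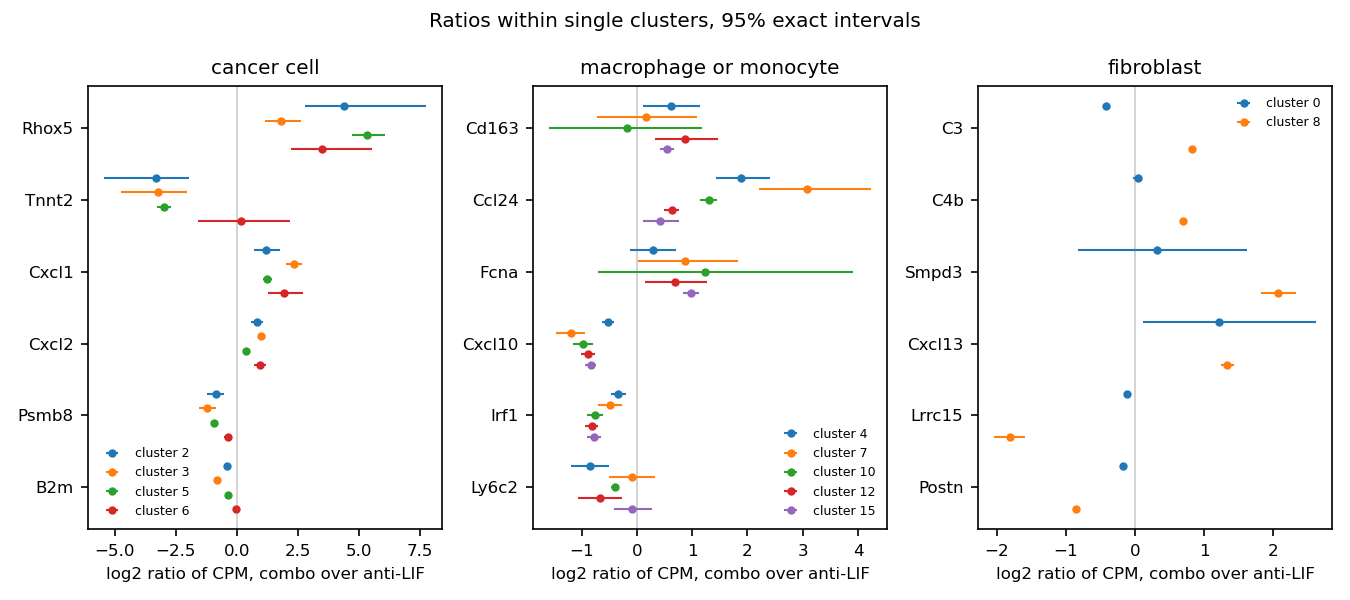
Log2 ratio of CPM, combo over anti-LIF, inside each cluster of cancer cells, macrophages and fibroblasts for 6 genes a class, with exact 95% counting intervals; colours are clusters. Cxcl10 and Irf1 lie below 0 in all 5 macrophage clusters, while C3 lies on opposite sides of 0 in the 2 fibroblast clusters.

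In endothelial cells 13 of 5360 measured genes (0.243%) were at least 2-fold higher and 23 (0.429%) lower. Timp4, an inhibitor of matrix proteases, was at 14.2 and 76.5 CPM, 2.40 [1.80, 3.12]. It is among the leading genes of an endothelial sub-cluster that held 110 of 789 anti-LIF and 250 of 845 combo cells. Bcl2l1, the survival factor Bcl-xL, was at 17.3 and 42.4 CPM, 1.27 [0.68, 1.95], with 0.44 elsewhere. Vegfa, the angiogenic ligand, was at 17.9 and 37.9 CPM, 1.06 [0.46, 1.73], Cxcr4 at 108 and 173 CPM, 0.68 [0.42, 0.94], with -0.11 and 0.35 elsewhere, and Aplnr, the apelin receptor of sprouting vessels, at 407 and 309 CPM, -0.40 [-0.55, -0.24]. Vegfa was at 0.11 with cells classed by marker score, and Cxcr4 at 0.025 with cells thinned to 1000 UMIs. Ltbp4, which binds latent TGF-beta, was at 760 and 340 CPM, -1.16 [-1.29, -1.03], with -0.96 elsewhere. Of 27 interferon gamma and MHC class I genes 18 were below 0, median -0.11: Psmb10 at -0.68 [-1.02, -0.33], B2m at -0.42 [-0.45, -0.39], Psmb8 at -0.41 [-0.57, -0.24] and H2-K1 at -0.29 [-0.33, -0.24]. Over the alternatives the list median ran from -0.36, as a mean over cells, to -0.09.

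Neutrophils and dendritic cells were few. In neutrophils 20 of 1370 measured genes (1.46%) were at least 2-fold higher and 20 (1.46%) lower. Kdm6b, a histone demethylase, was at 199 and 308 CPM, 0.62 [0.21, 1.07], Socs3 at 385 and 562 CPM, 0.54 [0.24, 0.86], against -0.15 elsewhere, and Tnfaip2 at 1359 and 1957 CPM, 0.53 [0.36, 0.69]. Adam8, a surface protease, was at 1468 and 859 CPM, -0.77 [-0.96, -0.59], and Adgre5 (CD97) at -0.87, with -1.02 elsewhere. Mmp9 was at 1378 and 951 CPM, -0.54 [-0.72, -0.35]. Retnlg, a gene of mature neutrophils, was at 3077 and 311 CPM, -3.30 [-3.54, -3.08], with 46.7% of its anti-LIF UMIs in 10 cells. The neutrophil cluster led by Ngp, Camp and Ltf, granule genes of immature cells, held 41 of 229 anti-LIF and 12 of 360 combo neutrophils, and its part in these values was not tested. All 4 measured MHC class II genes, described here after their values were seen, were at least 2-fold higher: Cd74 at 1.05, H2-Aa at 1.16, H2-Ab1 at 1.46 and H2-Eb1 at 1.55. Their combo UMIs lay to 75.5% to 81.7% in 10 of 360 cells, and these are genes of dendritic cells and macrophages. In dendritic cells 21 of 4700 genes (0.447%) were at least 2-fold higher and 33 (0.702%) lower. H2-DMa, which helps load peptides on MHC class II, was at 454 and 190 CPM, -1.26 [-1.43, -1.08], and at -1.15 elsewhere.

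Depth and handling were compared over the same classes. The median UMIs per cell were higher in combo in macrophages (3199 against 1896), fibroblasts (3481 against 2037), cancer cells (2931 against 2185), T cells (1410 against 1055.5) and dendritic cells (3767 against 2519). Genes induced by tissue dissociation had median log2 ratios of 0.05 in cancer cells, 0.15 in macrophages, 0.01 in T cells, -0.02 in fibroblasts, 0.19 in endothelial cells and 0.27 in neutrophils. Their part in the differences above was not tested.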

How the data were processed

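Single-cell RNA was captured with a SeekOne MM 3' kit, per the labels, and each library was deposited by the authors as whole UMI counts per gene and barcode, with gene names and barcodes as deposited lists of other content. The aligner, counter and cell calling are not given in the sources used here. The submitters' processing notes name mm10 and Seurat 4.0.3 without a role. Barcodes under 200 genes or over 20% mitochondrial UMIs were dropped. Counts scaled to 10000 per cell were clustered over all 4 libraries (scanpy 1.11.5, 2000 variable genes, 30 principal components, 15 neighbours, Leiden resolution 1, 33 clusters). Clusters were named from fixed markers, and those with leading markers of 2 classes stayed unnamed. T, NK and vascular cells were sub-clustered apart for the pair with anti-LIF and the pair without. No doublet caller was run, so doublets may remain. The score, runner-up and sub-cluster limits were set after clusters had been seen.

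UMIs were summed per class and library, with 0.5 counts added to each for the log2 ratio. Genes needed 100 UMIs over both libraries. Intervals are exact, at 95%: conditional binomial for ratios, Clopper-Pearson for shares and Poisson for CPM. They cover counting error only. With 1 library a side there was no test. A count of 0 was bounded by 3 counts. Named genes were, in classes of at least 200 cells a side, among the 8 highest and 8 lowest ratios with under 25% of UMIs in 10 cells and at least 10% of the highest CPM in another class, plus PD-1 and LIF axis members and up to 4 members each way of each other list in its own class. Some genes that this rule names are not reported here. Mitochondrial, ribosomal, immunoglobulin and T cell receptor variable genes, Xist and gene models were left out. Of the genes in 30 lists, 4 were not among the features. The members and lists were chosen with earlier results of these data known. Alternatives changed the cell limits, clustering, class assignment, weighting, depth, centring, counts added and gene minimum, and subtraction of the median over other classes was chosen after seeing the data. The calculations were checked on simulated data (python 3.11.15, numpy 2.4.6, scipy 1.17.1, pandas 2.3.3, scikit-learn 1.9.0, leidenalg 0.10.2, igraph 0.11.9, matplotlib 3.10.9).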

Additional observations from a re-analysis of the deposited data

Results flagged for a closer look

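Each result here had opposite directions with and without anti-LIF: the log2 ratio of combo over anti-LIF is followed by that of anti-PD-1 over control. The difference between the contrasts was not tested, since each rests on 1 library a side. Such a reversal held for most genes at least 2-fold lower in combo, though its share over all measured genes was not computed. With the opposite log2 ratio past 0.5, it held for 102 of 133 such genes in cancer cells. The counts were 70 of 87 in macrophages, 74 of 103 in fibroblasts and 29 of 33 in dendritic cells. Among genes at least 2-fold higher they were 12 of 50, 13 of 37, 34 of 87 and 3 of 21 in the same order. In neutrophils it held for 17 of 20 lower and 12 of 20 higher genes.

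Of shares, NK cells among all kept cells were at 0.93 and -1.85, and unnamed cells at 0.81 and -1.38. Unnamed cells were of several kinds, however, and their make-up differed between the contrasts. The unnamed cluster led by Alox15 was above 0 in both, at 1.23 and 3.96, the latter from 3 control and 36 anti-PD-1 cells. Another, led by Enpp2 and Il11, held 360 and 41 cells without anti-LIF, but 7 and 13 with it. Gamma delta T cells among T and NK cells were at -0.55 and 0.58. Among all kept cells, however, gamma delta T cells were below 0 in both contrasts, at -0.46 and -0.92.

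In cancer cells the higher genes were Ehf (1.31 and -0.91), Pim1 (0.71 and -1.16), Cxcl1 (1.92 and -1.29), Cxcl2 (0.87 and -2.75), Cxcl3 (0.86 and -1.27) and Cxcl5 (0.85 and -1.04). The lower ones were Tnnt2 (-2.95 and 1.64), Dpysl3 (-2.07 and 1.22), Macc1 (-1.90 and 0.62), Fosl1 (-0.75 and 0.91) and Aurka (-0.72 and 0.92).

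In macrophages Cubn (3.62 and -3.11) and Slc15a2 (1.58 and -0.56) were higher in combo than in the anti-LIF library. Ly9 (-1.73 and 1.56), Hp (-1.67 and 2.49) and Ctsd (-0.99 and 2.49) were lower in combo. Among T cells the pairs were -1.0005 and 0.63 for Xcl1 in CD8 T cells, -1.31 and 1.33 for Tnfrsf18 in Treg cells, -1.12 and 2.35 for Lrrc32 in Treg cells, -0.91 and 1.34 for Nr4a1 in conventional CD4 T cells, and -1.20 and 0.56 for Fosb in the latter.

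In fibroblasts Smpd3 (2.28 and -1.63), Aox3 (2.15 and -1.23), Serpina3c (1.97 and -1.88) and C3 (0.84 and -0.85) were higher in combo than in the anti-LIF library. So were C4b (0.77 and -1.19), Pi16 (0.79 and -1.30) and Socs1 (0.61 and -0.58). Bgn (-1.03 and 1.32) and Saa3 (-0.77 and 0.97) were lower in combo. The endothelial genes were Ltbp4 (-1.16 and 1.37) and Cxcr4 (0.68 and -2.04). In neutrophils Adgre5 (-0.87 and 1.13), Adam8 (-0.77 and 1.11), Mmp9 (-0.54 and 1.49) and Retnlg (-3.30 and 4.61) were lower, and in dendritic cells H2-DMa (-1.26 and 1.76).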

How the results depend on the processing

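Shares and list medians mostly stayed within counting error of their values, while counts of genes at least 2-fold apart moved with the gene minimum and with depth. The causes were not tested, except that fewer cells or genes entered some alternatives by construction. No paired analysis was possible because there was 1 library a side. Of 195 named genes and further lists, 184 reversed under no alternative run. A reversal was counted only where the reported counting interval left out 0. Counting every result, 30 had alternatives on both sides of 0.

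At most 10% mitochondrial UMIs gave a gland epithelium share of 1.77 (log2), 28 higher genes in cancer cells, and in cancer cells list medians of -0.62 (interferon gamma and MHC class I), -0.16 (STAT3 targets) and -0.024 (proliferation), with Socs1 at -0.028, Lif at -0.57, Il6st at 0.063 and Cxcl2 at -0.017, and collagen and matrix genes in fibroblasts at -0.16. The log2 ratio of the T cell share was 0.22 with at least 500 genes and 0.37 with at least 1000 UMIs. Classing each cell by marker score gave log2 ratios of shares of 0.10 (cancer cells), 2.14 (gland), -0.14 (NK), 0.32 (mast cells) and -0.16 (pericytes). Among T and NK cells the ratios were 0.014 (CD8), 0.66 (Treg), -0.19 (CD4) and -0.18 (NK). That classing gave 0.35 for alternative macrophage genes and 0.79 for Chil3. Higher and lower genes were then 22 and 55 in T cells and 23 and 58 in endothelial cells.

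Clustering the pair alone gave log2 ratios of shares of 0.081 (endothelial, there with pericytes) and 0.75 (neutrophils, there with the Alox15 cells). It put Ccl4 in CD8 T cells at -0.92. Higher genes were then 25 in T cells, and endothelial cells had 26 higher and 53 lower. Treg and CD4 subsets gave no value under that clustering. As means over cells, higher genes were 156 (cancer), 78 (macrophage), 162 (fibroblast) and 46 (endothelial, with 45 lower), Socs1, Il6st and Osmr in cancer cells were at -0.13, 0.15 and 0.027, Chil3 at 0.72, collagen at -0.18, and endothelial interferon gamma genes at -0.36. With clusters weighted alike, alternative macrophage genes were at 0.15 and collagen at -0.078; centring put collagen at -0.16.

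Thinning to 1000 UMIs kept 9531 anti-LIF and 12100 combo cells and left out 4483 and 4297. Higher and lower genes were then 11 and 48 (cancer), 11 and 56 (macrophage), 4 and 17 (T) and 41 and 47 (fibroblast), with 7 lower in endothelial cells, STAT3 targets in cancer cells at 0.25, inflammatory macrophage genes at -0.29, Chil3 at 0.79 and collagen at -0.18. With at least 20 UMIs the counts were 202 and 266 (cancer), 175 and 194 (macrophage), 164 and 140 (T), 274 and 254 (fibroblast) and 132 and 184 (endothelial). Subtracting the median over other classes, chosen after seeing the data, took in only genes measured in at least 2 other main classes, for counts and list medians alike. It left 22 and 23 (cancer), 12 and 13 (macrophage), 6 and 2 (T) and 24 and 13 (fibroblast), with 6 lower in endothelial cells. It put proliferation in cancer cells at 0.076, interferon gamma and alternative genes in macrophages at -0.038 and 0.081, Il6ra and Ctsd there at -0.12 and 0.042, Ccl5 in CD8 T cells at -0.13, collagen at -0.20 and Adgre5 in neutrophils at 0.15.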
